A study of Mus musculus with 10 samples.

Results

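The cytosolic ribosomal protein genes were examined in heart muscle cells of young mice. They were chosen by symbol: a row of the table belonged if its symbol was Rpl or Rps followed by a digit, or Rplp0, Rplp1, Rplp2 or Rpsa. The pattern matched 101 of 23337 rows. Left out were 10 Rps6k kinase symbols, Rps27l, 5 symbols with -ps and 2 rows with a base mean of 0 (Rpl26 and Rpl10l), which left 83 members among the 17371 rows with a base mean above 0. They were 31 proteins of the small (40S) subunit, 45 proteins of the large (60S) subunit, 6 paralogues of such proteins and Rps19bp1, which is named for binding a ribosomal protein and is not one itself.

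The cells came from wild-type mice given, on postnatal day 1, 5e+08 viral genomes per gram of AAV9-cTNT-dnMKL1-GFP or of AAV9-cTNT-GFP, and were collected on postnatal day 14 by collagenase perfusion and fluorescence-activated sorting. Both groups thus carried AAV9 and GFP. The vector's cTNT promoter, that of cardiac troponin T, is active in cardiomyocytes, and dnMKL1 is a dominant-negative form of MKL1, a coactivator of serum response factor. Each group had 5 biological replicates. The comparison asks which transcripts differ between cells with dnMKL1 and cells with GFP alone.

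A cytosolic ribosome holds one copy of most of its proteins, bound to ribosomal RNAs that RNA polymerases I and III make. Most mRNAs of these proteins begin with a run of pyrimidines, the 5′ terminal oligopyrimidine (TOP) motif, through which mTOR signalling and the RNA-binding protein LARP1 set how strongly they are translated. RNA sequencing measures the amount of such an mRNA and not its translation. Heart and skeletal muscle also express Rpl3l, a muscle-restricted paralogue of Rpl3, the protein whose loop reaches towards the peptidyl transferase centre where peptide bonds form.

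The mRNA starts are shown for members that the results turn on, since the start carries the TOP motif. They are RefSeq starts on GRCm38.p6, from 20 bases before the start to 30 from it, 5′ to 3′ on the gene's strand. Capitals mark the pyrimidine tract nearest the start, defined as a C followed by at least 4 of C or T that begins within 10 bases of it. A sequence with no capitals holds no such tract there. The first 7 belong to members called lower below, at chr7:141447631-141447680 (Rplp2, plus strand), chr17:24720043-24720092 (Rps2, plus), chr7:4792945-4792994 (Rpl28, plus), chr7:116334161-116334210 (Rps13, minus), chr9:120571497-120571546 (Rpl14, plus), chr8:123102330-123102379 (Rpl13, plus) and chr17:46782627-46782676 (Rpl7l1, minus). Then follow the upstream one of 2 listed starts of Rpl3l (chr17:24727806-24727855, plus) and, for comparison, 4 members that were not called: Rps6 (chr4:86857338-86857387, minus), Rpl15 (chr14:18270957-18271006, minus), Rpl4 (chr9:64173367-64173416, plus) and Rplp0 (chr5:115559447-115559496, plus).
Rplp2: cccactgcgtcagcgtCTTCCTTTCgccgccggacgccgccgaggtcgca
Rps2: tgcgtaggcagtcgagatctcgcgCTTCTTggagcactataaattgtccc
Rpl28: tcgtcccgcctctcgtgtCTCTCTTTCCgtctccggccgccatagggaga
Rps13: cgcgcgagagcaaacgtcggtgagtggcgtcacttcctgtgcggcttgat
Rpl14: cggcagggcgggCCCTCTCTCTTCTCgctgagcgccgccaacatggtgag
Rpl13: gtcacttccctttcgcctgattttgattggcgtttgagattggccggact
Rpl7l1: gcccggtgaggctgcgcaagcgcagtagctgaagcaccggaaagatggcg
Rpl3l: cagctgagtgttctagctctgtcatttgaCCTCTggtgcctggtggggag
Rps6: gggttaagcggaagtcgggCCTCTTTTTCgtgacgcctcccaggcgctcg
Rpl15: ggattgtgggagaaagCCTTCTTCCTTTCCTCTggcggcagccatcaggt
Rpl4: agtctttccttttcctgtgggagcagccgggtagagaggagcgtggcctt
Rplp0: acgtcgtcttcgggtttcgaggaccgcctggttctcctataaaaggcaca

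Across the mRNA starts, 56 of the 76 40S and 60S members had at least 1 entry in the RefSeq table, with 66 starts in all. A tract as defined above was found at 36 of these 66 starts (54.5%), against 29.7% of all 32851 starts in the table and 30 of 73 starts (41.1%) of mitochondrial ribosomal protein genes. Asked more strictly, with the C as the first base of the mRNA, it was found at 13 of 66 (19.7%) against 2.51% of all starts and 0 of the 73 mitochondrial starts. The motif CCGGAAG, on either strand of the 300 bases around the start, was found at 24 of 66 starts (36.4%) against 8.86% of all, and the mitochondrial genes had it at a like share, 24 of 73 (32.9%). AAGATGGCG was found at 5 starts (7.58%) of only 3 genes, Rps27, Rpl13a and the overlapping starts of Rpl35a, against 1.40% of all starts and 11.0% of the mitochondrial ones. TATAAA was found at 6 (9.09%) against 13.6% of all and 6.85% of the mitochondrial starts. A CArG box, the motif of serum response factor, was found at 1 of 66 starts (1.52%), that of Rpl10a, against 1.63% of all. The windows of different motifs were counted separately and can overlap, and a match describes letters, not a bound site.

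Values per library were not analysed here: the table gives the authors' contrast of dnMKL1 with GFP, with a base mean (normalized counts averaged over all 10 libraries), a log2 fold change with its standard error (SE), and a Wald p-value with its Benjamini-Hochberg adjusted value per gene. Each group's implied mean follows from the base mean together with the fold change. A gene was called higher or lower in dnMKL1 libraries where the adjusted p-value was under 0.05. Which group is the numerator is not stated and was taken from Mkl1, which the vector overexpresses in altered form, with implied means of 83.9 (GFP) and 74899 (dnMKL1) normalized counts. All directions rest on that reading. Library totals, estimated from size factors recovered from genes with 1 read, ran from 8802947 to 17228537 counts. Cardiomyocyte markers were abundant in both groups, with implied means for Myh6 of 768373 and 421599 normalized counts, and 8 of 11 were called lower and 0 higher. Of the markers of other cells, 0 of 8 endothelial and 5 of 10 fibroblast markers were called higher. So were 2 of 8 mural and 1 of 7 macrophage markers, with 1 mural marker lower. The summed implied mean of the fibroblast list went from 5179 to 8823 normalized counts. In that sum Gsn went from 876 to 1951 and Fbln1 from 748 to 1944, while Dcn, Lum, Pdgfra, Dpt and Postn were not called. Of the red cell markers, Hba-a1 and Hba-a2, near-identical copies, were listed at 0, and Alas2 and Slc4a1 had base means of 6.87 and 1.45 normalized counts. The part of these other cells in the values below was not tested, and in such bulk samples fewer cells of a type cannot be told apart from less RNA per cell.

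Under the authors' scaling, most ribosomal protein mRNAs differed little between the groups. Of 81 members with an adjusted p-value, 10 (12.3%) were called, against a background of 34.1% of all 14056 genes tested. By direction, 1 member was higher against a background of 16.6%, and 9 were lower against a background of 17.4%. The members' median log2 fold change was -0.056, with its interquartile range from -0.161 to 0.030, and the median over all genes tested was 0.021. With the group totals set equal, a shift of 0.29 for every gene, the members' median turned to 0.23 and 40 were higher and 1 lower, so neither the sign of the family's median nor the split of its calls holds under that scaling. The background was then 40.4% higher and 6.60% lower.

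The calls were also set beside genes of like base mean. Base means lay between 100 and 1000 normalized counts for 71 members, at 1000 or more for 5 and under 100 for 7. Of the 71, 1 was called higher and 7 lower (11.3% in all), against 39.3% of 6515 tested genes in the same range, of which 20.0% were higher and 19.3% lower. The median SE of these 71 members was 0.108 on the log2 scale, and that of all genes in the range was 0.122. The 95% interval of the log2 fold change lay wholly within ±0.5 for 69 of 81 members (85.2%), against 52.3% of genes in the range and 34.3% of all genes tested. For these 69 members the intervals thus leave out a change of more than 0.5 in either direction under the authors' scaling. These shares describe the list and carry no test of their own.

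**Figure D1:**
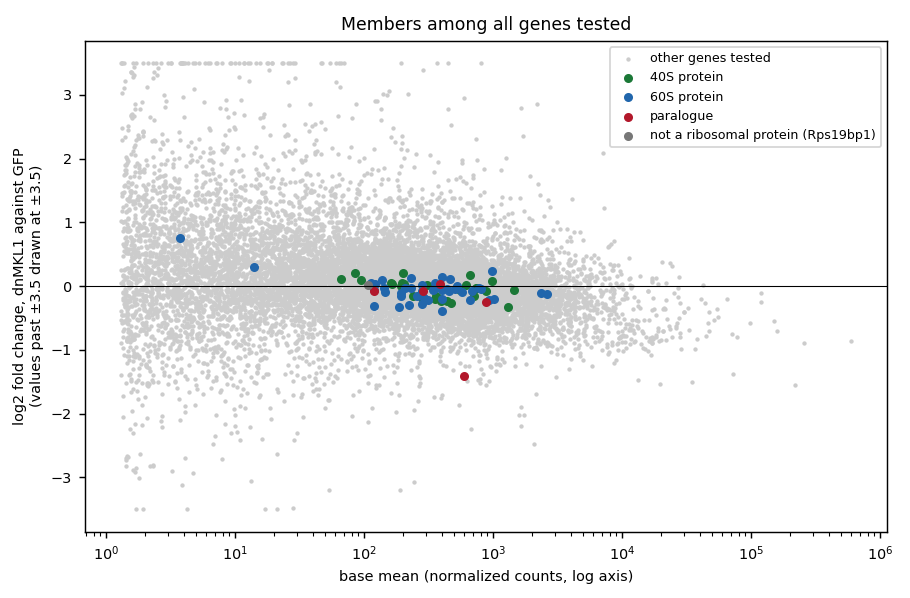
Log2 fold change in dnMKL1 against GFP (vertical axis) by base mean in normalized counts (horizontal log axis) for all genes tested, with 40S proteins, 60S proteins, paralogues and Rps19bp1 in colour. The members lie in a narrow band about 0, with Rpl3l at -1.40 and the thinly counted Rpl30 at 0.75 outside it.

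Over the 30 40S proteins with an adjusted p-value, log2 fold changes had a median of -0.029 and ran from -0.33 (Rps2) to 0.21 (Rps28). Of these proteins 0 were called higher and 2 lower, 6.67% in all against 34.1% of all genes tested. For Rps2, a protein near the channel where mRNA enters, the authors' deposited table implied means of 1448 (GFP) and 1155 (dnMKL1) normalized counts, a log2 fold change of -0.33 (SE 0.12, adjusted p = 0.025). Rps13 had implied means of 515 and 428, and the authors' deposited table gave a log2 fold change of -0.27 (SE 0.10, adjusted p = 0.019). Both values were small and both depend on the scaling, since with group totals set equal they were -0.038 and 0.020 and neither passed. Rps3, which also lines the mRNA entry channel, had implied means of 1470 and 1411, with -0.06 (SE 0.09, adjusted p = 0.69) in the authors' deposited table. Rps6, the protein that S6 kinase phosphorylates downstream of mTOR, stood at 609 and 620, with 0.03 (SE 0.06, adjusted p = 0.82) in the authors' deposited table. Its start, printed above, carries one of the tracts that include the first base of the mRNA. The highest 40S values were those of Rps28 (0.21, SE 0.20) and Rps15a (0.21, SE 0.14) in the authors' deposited table, with adjusted p-values of 0.48 and 0.26, and neither passed.

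Among the 45 60S proteins, 1 was called higher and 5 lower, and the median log2 fold change was -0.061. The share called was 13.3%, against 34.1% of all genes tested. The member called higher was Rpl3, with implied means of 904 and 1071 normalized counts and a log2 fold change of 0.24 (SE 0.09, adjusted p = 0.022) in the authors' deposited table. Those called lower besides the stalk protein below were Rpl28, at -0.32 (SE 0.11, adjusted p = 0.010), Rpl8, at -0.22 (SE 0.07, adjusted p = 0.010), Rpl14, at -0.22 (SE 0.06, adjusted p = 0.0038), and Rpl13, at -0.21 (SE 0.08, adjusted p = 0.034), in the authors' deposited table. Rpl8 lies close to the peptidyl transferase centre, and its implied means were 1008 and 867. The implied means were 205 and 164 for Rpl28, 711 and 612 for Rpl14 and 1081 and 937 for Rpl13. The fitted folds were 0.860 for Rpl8 and 0.867 for Rpl13. With group totals set equal Rpl8, Rpl14 and Rpl13 stood at 0.070, 0.071 and 0.082 and none of the 4 was called. Rpl4, whose extension lines the exit tunnel of the growing peptide, had the second highest base mean of all members (2359) and a log2 fold change of -0.11 (SE 0.06, adjusted p = 0.12) in the authors' deposited table. Its interval, from -0.22 to 0.00014, was one of the narrowest. Among the lowest values, Rpl27a (-0.32, SE 0.14) and Rpl36 (-0.30, SE 0.19) did not pass in the authors' deposited table, with adjusted p-values of 0.068 and 0.23.

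The acidic stalk, formed by Rplp0 with pairs of Rplp1 and Rplp2, recruits the GTPases of elongation to the 60S subunit. Of its 3 members 1 was called, where 34.1% of all genes tested were called. Rplp2 had implied means of 456 (GFP) and 347 (dnMKL1) normalized counts, and in the authors' deposited table its log2 fold change was -0.39 (SE 0.14, adjusted p = 0.017). Rplp1 stood at 529 and 530, with 0.0024 (SE 0.13, adjusted p = 0.99) in the authors' deposited table. Rplp0, the member with the largest base mean (2629), had implied means of 2737 and 2522 and a log2 fold change of -0.12 (SE 0.11, adjusted p = 0.45) in the authors' deposited table. The 95% intervals of Rplp2 (-0.67 to -0.12) and Rplp1 (-0.25 to 0.25) overlap, and the difference between them was not tested. With group totals set equal, Rplp2 was at -0.11 and not called.

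**Figure D2:**
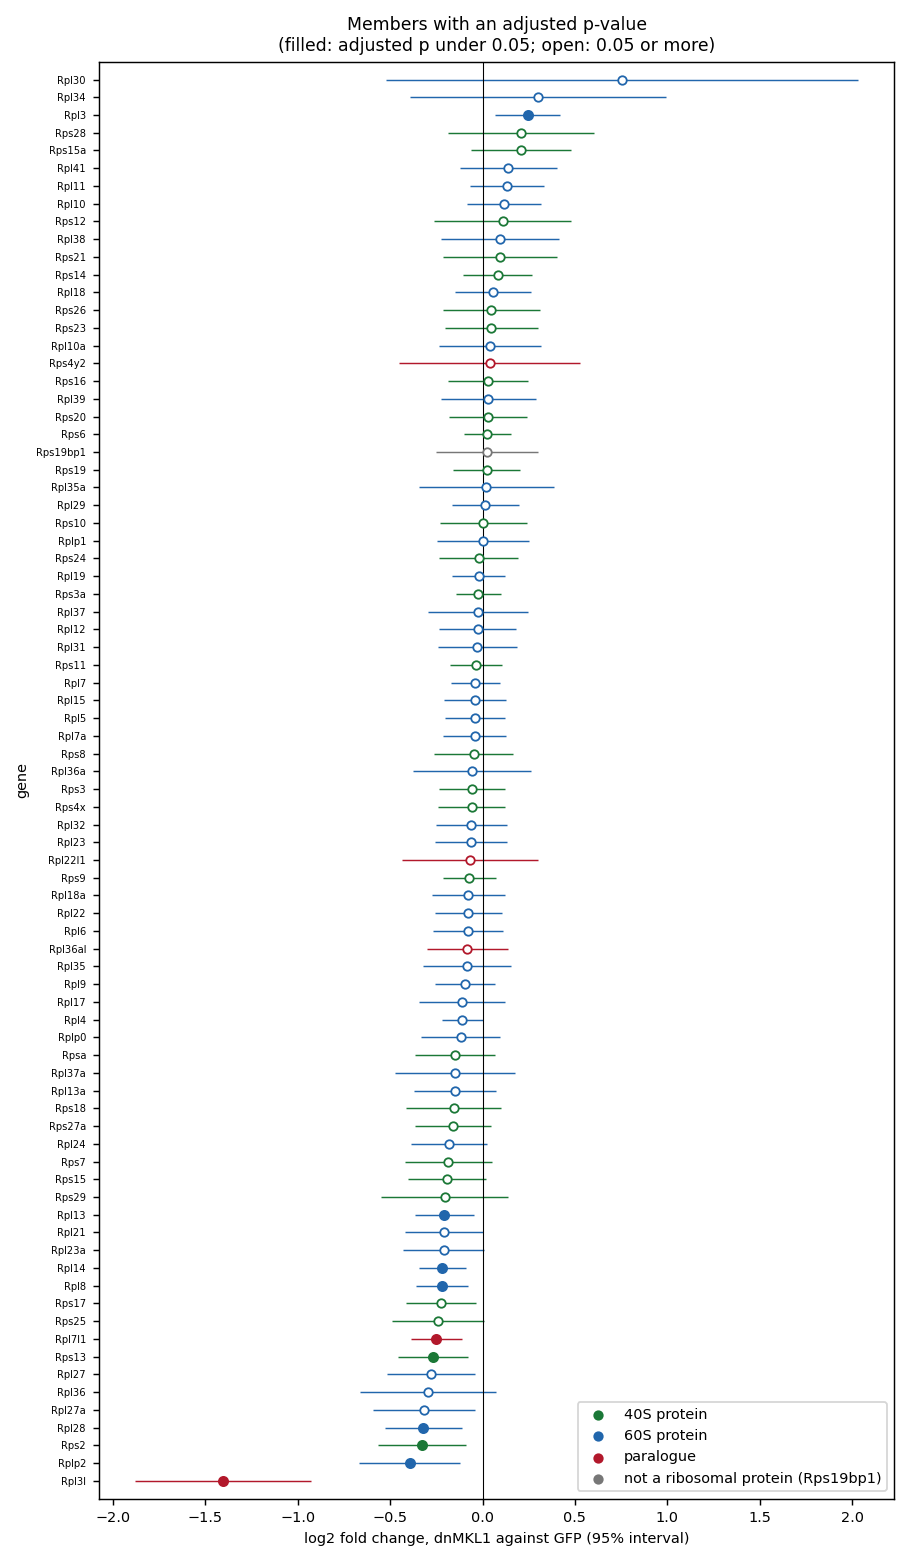
Log2 fold change in dnMKL1 against GFP of the members with an adjusted p-value, apart from 1 not reported by name, sorted, each with its 95% interval from the deposited SE; filled points have an adjusted p-value under 0.05. Rpl3l stands apart at -1.40, the other 8 members called lower lie between -0.39 and -0.21, and Rpl3 at 0.24 is the 1 member called higher.

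The member that changed most was the muscle paralogue Rpl3l. Its implied mean was 863 normalized counts with GFP alone and 326 with dnMKL1, and the authors' deposited table gave a log2 fold change of -1.40 (SE 0.24, adjusted p = 1.2e-07). Its 95% interval, from -1.88 to -0.93, lay below that of each other member with an adjusted p-value. Of the 14056 genes tested, 187 had a lower log2 fold change. Rpl3l was also the 1 member called lower with group totals set equal, at -1.12.

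Rpl3l and Rpl3 occupy the same place in the ribosome, one or the other in each particle, and their mRNAs moved in opposite directions, also with group totals set equal, where Rpl3 stood at 0.53. Per kilobase of main transcript, the implied levels of Rpl3 and Rpl3l were 669 and 628 normalized counts with GFP alone, and 793 and 237 with dnMKL1. Rpl3l thus made up 48.4% of the pair's mRNA per length with GFP alone and 23.0% with dnMKL1. The difference between their log2 fold changes, Rpl3l minus Rpl3, was -1.65. Setting group totals equal leaves this difference unchanged, since it shifts both genes alike. No error for it could be computed without values per library. The counting of the pair is unequal: 85.6% of the 50-base stretches of the Rpl3 transcript are also found in transcripts of 26 other genes of the annotation, and 0 of those of Rpl3l. How the authors' counting treated reads from such stretches is not given in the sources used here, so the level and the rise of Rpl3 are uncertain while reads of Rpl3l had no such copy to go to.

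The other paralogues had fold changes nearer to 0 than Rpl3l, apart from the thinly counted Rpl39l. Rpl7l1 had implied means of 961 and 809 normalized counts, with a log2 fold change of -0.25 (SE 0.07, adjusted p = 0.0021) in the authors' deposited table, and its parent Rpl7 had -0.04 (SE 0.07, adjusted p = 0.73). With group totals set equal Rpl7l1 turned to 0.039 and was not called. Rpl22l1 and Rpl22, of which the parent is known to repress the paralogue in other cells, had -0.07 (SE 0.19) and -0.08 (SE 0.09) in the authors' deposited table, and the share of Rpl22l1 per length was 26.7% and 26.9%. Rpl36al and Rpl36a had -0.08 (SE 0.11) and -0.06 (SE 0.16) in the authors' deposited table, with shares of Rpl36al of 68.8% and 68.4%. Rps4y2, which RefSeq lists under the symbol Rps4l and the annotation as a transcribed processed pseudogene, stood at 0.04 (SE 0.25), and its parent Rps4x on chromosome X at -0.06 (SE 0.09), in the authors' deposited table. None of these last 6 genes passed the test. Rpl39l had a base mean of 1.05 normalized counts and no adjusted p-value, against 121 for its parent Rpl39, which had a log2 fold change of 0.03 (SE 0.13, adjusted p = 0.90) in the authors' deposited table. Rps19bp1 stood at 0.02 (SE 0.14, adjusted p = 0.92) in the authors' deposited table.

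**Figure D3:**
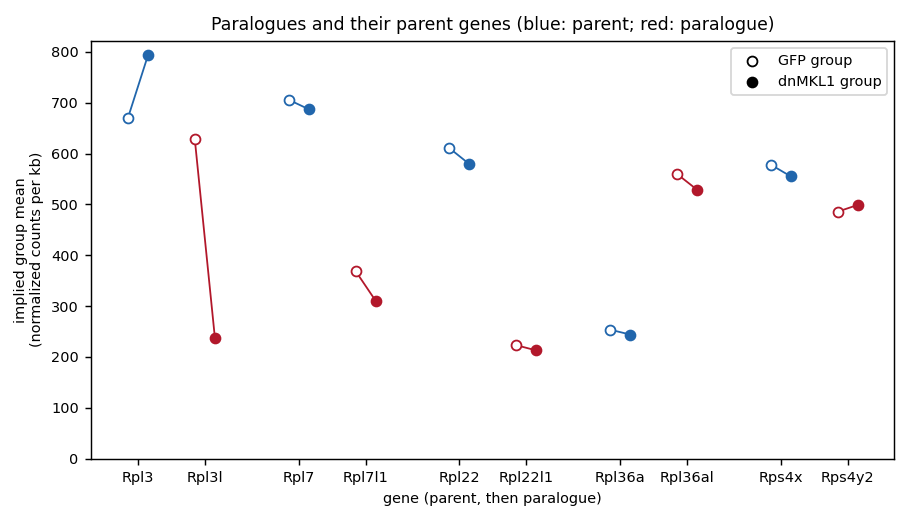
Implied group means in normalized counts per kilobase of main transcript for 5 paralogues (red) beside their parent genes (blue), with the GFP group open and the dnMKL1 group filled; no error is shown because values per library were not analysed. Rpl3l goes from 628 to 237 while Rpl3 goes from 669 to 793, and every pair keeps its order.

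Levels differed widely between members of a particle that holds most of them in equal numbers. Base means per kilobase of the 40S and 60S members ran from 2.08 normalized counts (Rps27) to 1936 (Rplp0). The lowest 3, Rps27, Rpl30 and Rpl34, had base means of 0.72, 3.76 and 14.1 normalized counts in the authors' deposited table, and 98.6%, 47.8% and 50.6% of their 50-base stretches recur in other genes. Rpl26, also a core 60S protein, was listed at 0. Sharing was common in the family: the median 40S or 60S member had 52.6% of its stretches in other genes' transcripts, from 0 to 98.6% (Rps27), against a median of 0 among mitochondrial ribosomal proteins. Across 76 members, Spearman's rho between this share and the base mean per kilobase was 0.076, a description over genes of the same libraries. Fold changes were also set beside the sharing. The 34 members with at most 50% shared stretches had 0 higher and 4 lower and a median log2 fold change of -0.050. The 41 tested members above 50% had 1 higher and 3 lower and a median of -0.048. The shares called were 11.8% and 9.76%, against 34.1% of all genes tested. For 7 members the exons also overlap those of another gene in the table, as those of Rpl28 do with Ube2s, and their counts are uncertain for that reason, since the use of strand is not given in the sources used here.

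**Figure D4:**
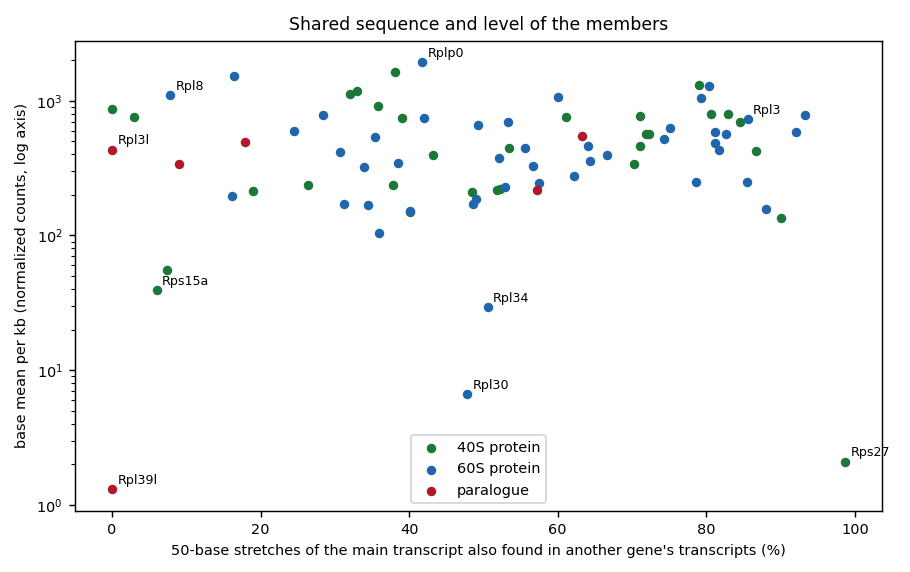
Base mean per kilobase in normalized counts (vertical log axis) by the percentage of 50-base stretches of a member's main transcript that are also found in another gene's transcripts (horizontal axis), for 40S proteins, 60S proteins and paralogues. Most members lie between 100 and 1936 (Rplp0) at every degree of sharing, and Rps27, Rpl30, Rpl34 and Rpl39l lie below, as do Rps15a and Rps20, whose main transcripts in the annotation are 5130 and 3706 bases long.

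Fold changes within the family were set beside other properties of the genes. Across 75 members, Spearman's rho between log2 fold change and base mean was -0.29, a description over genes that share libraries. The most abundant 38 members had 1 higher and 6 lower with a median log2 fold change of -0.067. The least abundant 38 had 0 higher and 1 lower among 37 tested with a median of -0.020. That is 18.4% and 2.70% called, against 34.1% of all genes tested. Members with a tract within 10 bases of a start numbered 34, with 0 higher and 4 lower of 33 tested and a median of -0.027. The 22 members whose listed starts had none showed 0 higher and 2 lower, with a median of -0.078. The shares called were 12.1% with a tract and 9.09% without, against 34.1% of all genes tested. Among the sequences above, Rplp2, Rps2, Rpl28, Rpl14 and Rpl3l carry a tract and were lower, and Rps13, Rpl13 and Rpl7l1 carry none and were lower. Rps6 and Rpl15 carry one and were not called, and Rpl4 and Rplp0 carry none and were not called. The printed sequences of Rps13, Rpl13, Rpl4 and Rplp0 do hold such a run outside the 10-base window. The split by tract thus depends on how exact the annotated starts are, which was not tested. Short transcripts formed a further comparison, since ribosomal protein mRNAs are short. Among all genes with base means from 100 to 1000, those with a main transcript under 1000 bases had a median log2 fold change of -0.12 (n = 420). Of these, 43 were higher and 129 lower, 41.0% in all against 39.3% of genes of any length in the range. The 40S and 60S members in that base mean range, of any transcript length (n = 65), had a median of -0.048. The sets overlap, since members with short transcripts are in both, so the comparison was not matched by length.

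The summed mRNA of the family was set against the library totals. The 40S and 60S members made up 0.267% of the implied total of the GFP group and 0.309% of that of the dnMKL1 group, a ratio of 1.15. All genes with base means from 100 to 1000 together went from 19.4% to 23.6%, a ratio of 1.21. The summed implied means of the 40S and 60S members were 35623 and 33689 normalized counts, a log2 ratio of -0.081, so the direction of their sum depends on the denominator. The implied totals over all genes were 1.33e+07 and 1.09e+07, and the cardiomyocyte markers alone took 15.1% and 10.2% of them. The mitochondrial ribosomal proteins took 0.555% and 0.451%. These shares do not compare the levels of both families, since their shared sequence is unequal. A median of 52.6% of 50-base stretches recurred in other genes for 40S and 60S members, against 0 for the mitochondrial ones. How reads from such stretches were counted is not given in the sources used here.

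The mitochondrial ribosomal proteins, which build the separate ribosome that translates mitochondrial DNA, were measured in the same libraries. Of 76 tested, 0 were higher and 67 lower, 88.2% in all against 34.1% of all genes tested. Their median log2 fold change was -0.55 and their median SE 0.112, close to that of the cytosolic members (0.109). Mrps9, Mrps2 and Mrpl3 had the smallest p-values of that list, with log2 fold changes of -1.02, -0.93 and -0.86 in the authors' deposited table, and Mrpl42 had its largest base mean and stood at -0.70. With group totals set equal, 39 were lower and 3 higher, against a background of 6.60% lower and 40.4% higher. The median was then -0.26, so the median log2 fold changes of the cytosolic and mitochondrial lists had opposite signs under that scaling. No test of the difference between the lists was made.

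Some ribosomal proteins have symbols outside the rule. Rps27l, the paralogue of Rps27, was higher at 0.23 (SE 0.07, adjusted p = 0.0023) in the authors' deposited table, with implied means of 796 and 935 normalized counts. Fau, ubiquitin-like protein fused to a 40S protein, and Gnb2l1, the 40S scaffold also called Rack1, had 0.11 (SE 0.12) and -0.0094 (SE 0.07) in the authors' deposited table and were not called.

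Elongation and termination factors, the proteins that work on the ribosome, were called in both directions: of 10, 2 were higher and 4 lower, with a median log2 fold change of -0.11. Their called share was 60%, against 34.1% of all genes tested. Under equal group totals 4 were higher and 1 lower, against a background of 40.4% higher and 6.60% lower. Eef1d, a subunit of the exchange factor that recharges eEF1A with GTP, was lowest at -0.57 (SE 0.08, adjusted p = 5.2e-12) in the authors' deposited table. Its partners differed in sign, with Eef1g at -0.31 and Eef1b2 at 0.24, both called in the authors' deposited table. Eef1a1, the form of eEF1A that muscle replaces with Eef1a2 after birth, was higher at 0.43 (SE 0.10, adjusted p = 8.1e-05) in the authors' deposited table, with implied means of 3361 and 4528 normalized counts. Eef1a2 stood at -0.20 (SE 0.15) in the authors' deposited table and was not called. Eif5a and Gspt1 were lower, at -0.25 and -0.23, and Eef2, the translocase and most counted gene of the list (base mean 5470), stood at 0.16 (SE 0.08) and was not called, in the authors' deposited table.

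Other mRNAs with a TOP motif had 2 of 11 higher and 3 lower, with a median log2 fold change of -0.022. That is 45.5% called, against 34.1% of all genes tested. Equal group totals gave 6 higher and 1 lower, against a background of 40.4% higher and 6.60% lower. Naca, of the complex that binds nascent chains at the exit tunnel, was lower at -0.60 (SE 0.09, adjusted p = 2.8e-10) in the authors' deposited table, where its partner Btf3 was at -0.24 (SE 0.08, adjusted p = 0.0098). Pabpc1, the cytoplasmic poly(A)-binding protein, was higher at 0.30 (SE 0.07, adjusted p = 1.9e-04) in the authors' deposited table.

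Genes that make ribosomal RNA and assemble the subunits were mixed under the authors' scaling. Of 9 genes of RNA polymerase I and its cofactors, 1 was higher (Ubtf, 0.23) and 4 were lower, led in the authors' deposited table by the largest subunit Polr1a at -0.68 (SE 0.15, adjusted p = 4.9e-05) and by Polr1e at -0.46 (SE 0.11, adjusted p = 4.2e-04). The share called was 55.6%, against 34.1% of all genes tested. When group totals were set equal, 3 of these 9 were higher and 1 lower, against a background of 40.4% higher and 6.60% lower. Of 42 assembly factors, 3 were higher and 6 lower, 21.4% in all against 34.1% of all genes tested, with a median log2 fold change of 0.016. Equal group totals gave 22 higher and 0 lower assembly factors, against the same background of 40.4% higher and 6.60% lower. Nmd3, the export adaptor of the 60S subunit, was lower at -0.30 (SE 0.07, adjusted p = 3.1e-04), and Rrs1, which brings the 5S particle into the 60S precursor, was lower at -0.43 (SE 0.12, adjusted p = 0.0012), in the authors' deposited table. Bop1, of a complex that processes the precursor of 60S ribosomal RNA, was higher at 0.44 (SE 0.12, adjusted p = 0.0012) in the authors' deposited table. Ncl, nucleolin, had the largest base mean of the list (2878) and stood at 0.05 (SE 0.08) in the authors' deposited table. Of 7 factors that rescue stalled ribosomes, 0 were higher and 1 was lower, 14.3% in all against 34.1% of all genes tested. That gene was Pelo, at -0.50 (SE 0.16, adjusted p = 0.0081) in the authors' deposited table. Under equal group totals 4 of the 7 were higher and 0 lower, against that background of 40.4% higher and 6.60% lower.

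Regulators of ribosomal protein synthesis held the largest rises among the lists of translation genes, with 4 of 18 higher and 2 lower and a median log2 fold change of -0.031. Their called share of 33.3% was near that of all genes tested, 34.1%. Sesn2, a leucine sensor that restrains mTOR complex 1, had implied means of 119 and 341 normalized counts and was higher at 1.52 (SE 0.20, adjusted p = 5.1e-12) in the authors' deposited table. Ddit4, which restrains the same complex through TSC, was higher at 0.96 (SE 0.22, adjusted p = 1.0e-04), and Myc, a transcription factor that promotes ribosome production, was higher at 1.22 (SE 0.31, adjusted p = 4.1e-04), in the authors' deposited table. Mtor itself was lower at -0.40 (SE 0.14, adjusted p = 0.018) and Tsc1, of the complex that restrains mTOR complex 1, was lower at -0.37 (SE 0.11, adjusted p = 0.0027), in the authors' deposited table. Known brakes and drivers of ribosome production thus stood among both the higher and the lower genes under the authors' scaling. Setting the group totals equal gave 9 of the 18 higher and 0 lower, against a background of 40.4% higher and 6.60% lower. Tsc2, the most counted gene of the list (base mean 2504), stood at -0.22 (SE 0.13) and was not called in the authors' deposited table.

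**Figure D5:**
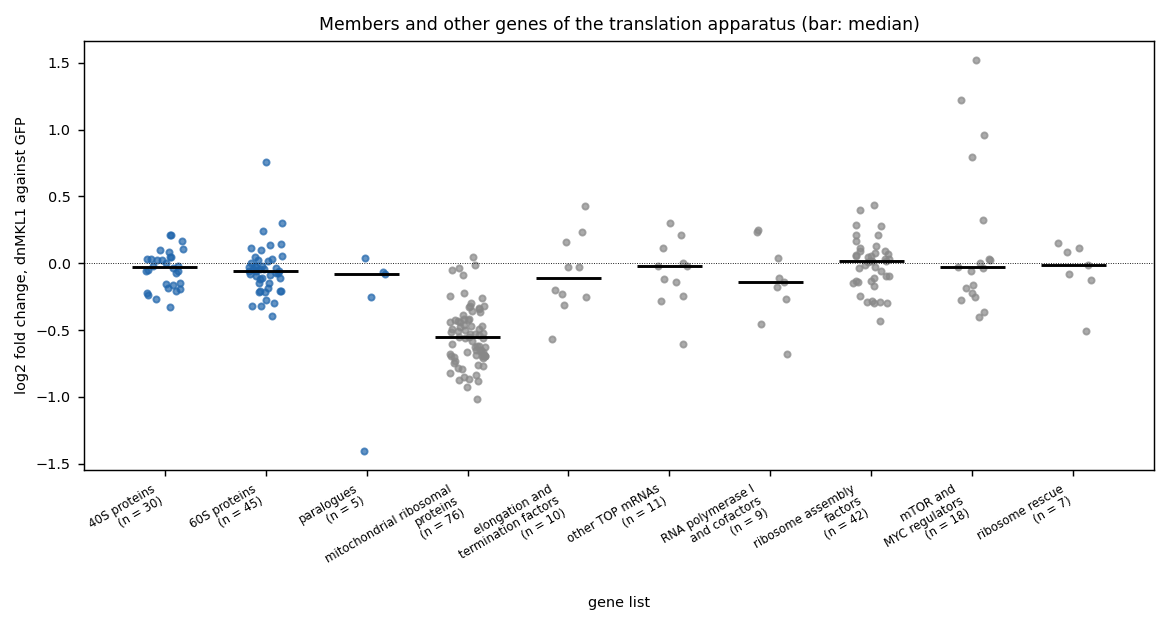
Log2 fold change in dnMKL1 against GFP (vertical axis) of each gene with an adjusted p-value in 10 lists (horizontal axis), with the median as a bar; blue points are members. The 40S and 60S proteins have medians of -0.029 and -0.061, the mitochondrial ribosomal proteins -0.55, and the mTOR and MYC regulators spread up to 1.52 (Sesn2).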

How the data were processed

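RNA of 10 libraries was amplified with SMART-Seq v4 and made into Nextera XT libraries, per the labels' protocols. Reads were aligned with STAR and counted with featureCounts, per the labels, and the submitters' processing notes list CASAVA 1.8, STAR 2.5.3a, Subread 1.5.2 and build mm10; strand setting and annotation are not given in the sources used here. The base mean is a signal of normalized counts deposited by the authors in a DESeq2 results table, which also holds their log2 fold change with its SE, their Wald score, and their p-values, raw and Benjamini-Hochberg adjusted, per the file headers. The deposited score was recomputed as fold change over SE (largest gap 1.1e-05) and the deposited adjusted p-value over 14056 genes (largest gap 1.4e-07).

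Calls are the authors' adjusted p-values under 0.05, from a Wald test of fold change over SE. The SE reflects the spread between the replicates as fitted by the authors. Group means were implied from base mean and fold change, with equal group sizes. Library totals were estimated from genes with 1 read, cover counting depth only, and could not be matched to replicate numbers. Transcript lengths, 50-base stretches and exon overlaps came from the GENCODE annotation on GRCm38, with 1 main transcript a gene, and starts from RefSeq on GRCm38.p6. Scripts used Python 3.11.15, pandas 2.3.3, numpy 2.4.6 and scipy 1.17.1, and were tested on simulated data. Named were the 6 members of largest base mean, the 6 lowest and 6 highest fold changes, the stalk, paralogues with parents, Rps19bp1 and the member called against the majority, and in other lists the 3 smallest p-values and the largest base mean; Rps13, Rpl7l1, Rpl8, Rpl14, Rpl13, Rps6, Rpl15, Rps27 and several called genes of other lists were named after their values were seen. The members and lists were chosen with earlier results of these data known. Some results of single genes are not reported here. Alternatives were other thresholds, adjustment over all p-values, base mean minimums of 10 and 100, equal group totals, median-centring and the list without paralogues.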

Additional observations from a re-analysis of the deposited data

How the results depend on the processing

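No paired analysis was possible because values per library were not analysed here, and for the same reason count tests, other normalizations and fits that each leave out 1 library were left out. No value could be checked for resting on 1 library, and the SE of each gene sets what could be detected. The 10 called members (1 higher, 9 lower) were 10, with the same split, under adjustment over all p-values, base mean minimums of 10 and 100, and median-centring, and 8 (1 higher, 7 lower) without paralogues and Rps19bp1. An adjusted p-value under 0.01 left 3 (0 higher, 3 lower: Rpl3l, Rpl7l1 and Rpl14), and one under 0.1 gave 14 (2 higher, 12 lower). Requiring an absolute log2 fold change of 0.5 or more left 1 (0 higher, 1 lower), Rpl3l. These counts differ by construction of the threshold. With group totals set equal 41 were called, 40 higher and 1 lower, and the median log2 fold change reversed from -0.056 to 0.23. It also reversed Rps13 to 0.020, Rpl7l1 to 0.039, Rpl8 to 0.070, Rpl14 to 0.071 and Rpl13 to 0.082, none past the threshold. The shift of 0.29 it adds to every gene is its whole effect. Of the 10 called members, 2 (Rpl3l and Rpl3) kept direction and call under that scaling. The median moved to -0.060 with median-centring and with the base mean minimum of 100, and to -0.048 without paralogues and Rps19bp1.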
